A study of Mus musculus with 9 samples.

Results

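Translation initiation factors (eIFs) and elongation factors (eEFs) were followed in motor neuron (MN) pools of the mouse that innervate 3 hindlimb muscles. A gene was taken as a member where the platform annotation gave its transcript cluster (the set of probes along the exons of a gene) a single symbol that begins with Eif or Eef and a digit. Of 66 such clusters, 5 with pseudogene names (-ps) and the 2 of the sex-linked eIF2 gamma genes were left out, and the remaining 59 clusters stood for 58 genes of 30176 with a single symbol. Eif3d had a second, dim cluster, and its brightest cluster was used. Among the 58 members, 56 are protein coding, Eif4a3l2 is a pseudogene and Eif2c5 is a non-coding RNA whose Eif2c name is an older name of the Argonaute family and not of a translation factor. Eif1, Eif2s1, Eif3g, Eif4g1 and some others had no cluster with a single symbol and are not analysed here.

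MNs were labelled by injecting the lectin WGA, coupled to a peroxidase, into 1 of the 3 muscles in both hindlegs of each mouse. They were then captured by laser. The 9 wild-type FVB mice were of both sexes and came from a single litter. The extensor digitorum longus (EDL), whose MNs the study calls resistant in spinal muscular atrophy (SMA), received 1 µl, while 3 µl went into the gastrocnemius (GS), called intermediate, or into the tibialis anterior (TA), called vulnerable. Injection was at postnatal day 14, the cords were taken 48 h later, and each pool had 3 mice with 1 array each. No group carried an SMA mutation according to the sample labels, although the series' design text mentions an SMA background, and labels and methods also differ on the level of the cord and the thickness of the sections.

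Values are log2 signals as the authors deposited them, so a difference of 1 is 2-fold. Values of single mice are given throughout in the order M11, M14 and M33 for EDL, M13, M30 and M31 for GS, and M0, M1 and M3 for TA. Levels of different genes come from different probes and were not set against each other. Differences were tested with limma over 65956 transcript clusters, and a member is called where the Benjamini-Hochberg adjusted p was under 0.05. In captured cells, fewer cells and less RNA per cell cannot be told apart.

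Initiation begins when eIF1, eIF1A, eIF3 and eIF5 gather on the small ribosomal subunit with eIF2, which carries the initiator tRNA and GTP. The eIF4 factors bind the cap of the messenger RNA and unwind it, the complex scans to the start codon, and eIF5B joins the large subunit. eIF2B reloads eIF2 with GTP, a step that the eIF2 alpha kinases block under stress. During elongation, eEF1A brings aminoacyl-tRNA to the ribosome, the eEF1B subunits reload eEF1A with GTP, and eEF2 moves the ribosome along. Many messages of ribosomal proteins and elongation factors share a pyrimidine run at their start (TOP messages), through which TOR signalling sets their translation, and neurons depend on these steps for local synthesis in axons as well as in the cell body.

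Start sites were found for 44 of the 58 members in the RefSeq promoter table (GRCm38.p6), which holds 250 bases before and 50 bases after each annotated start. The core motif of ETS transcription factors, CCGGAAGT (ACTTCCGG on the other strand), was searched on both strands. It stood in the 300 bases of 9 of 44 members (20.5%), against 1164 of 27025 genes with a window (4.31%). Of members with a window, it stood in 4 of the 10 called between EDL and TA (40.0%) and in 5 of the 34 others (14.7%). These shares were not tested against each other. The following 30-base windows show the motif in capitals, first for the 4 called members and then for 4 members that were not called, so that the same letters can be seen on both sides of the threshold.
Eef1b2, 1:63176821-63176850, plus strand: ctgcagttccgCCGGAAGTagccgaggcct
Eif2b4, 5:31193120-31193149, minus strand: cccagtgcacgCCGGAAGTtgtagtccgct
Eif3d, 15:77970877-77970906, minus strand: agctgtgacacACTTCCGGttgtgtctcac
Eif3l, 15:79075176-79075205, plus strand: ggctgggcgggACTTCCGGtccggccaagc
Eif2b2, 12:85219486-85219515, plus strand: cctctctcggcCCGGAAGTgaaacagtgct
Eif4e2, 1:87213905-87213934, plus strand: tcgccagccaaCCGGAAGTagccgggccct
Eif5a, 11:69920667-69920696, minus strand: cagccgtagcaCCGGAAGTgttccccattg
Eif2ak1, 5:143817796-143817825, plus strand: gctcttgtgttACTTCCGGcttggggggag
In Eef1b2 and in Eif2b4 the motif began at the second base of the annotated transcript, whereas in Eif3l it began 36 and in Eif3d 71 bases before the start. A match describes the letters of a window and does not show that a factor binds there.

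A pyrimidine run of the TOP type, a C at the annotated start followed by 4 or more of C or T, was found in 2 of 44 members (4.55%) and in 813 of 27025 genes (3.01%). One of the 2 was Eif3f, shown here because it belongs to the known TOP messages. The capitals mark the part of its pyrimidine run that lies from the annotated start onward. The run itself begins upstream, in the small letters just before the capitals.
Eif3f, 7:108934405-108934434, plus strand: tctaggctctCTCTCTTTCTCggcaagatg
For the others, no match says only that these letters are not at that base. The run at the start stood in 0 of the 10 members called between EDL and TA and in 2 of the 34 others (5.88%). A run that began within 10 bases of the start stood in 17 of 44 members (38.6%) and in 34.4% of all genes. It stood in 2 of the 10 called members (20.0%) and in 15 of the 34 others (44.1%).

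The arrays differed in quality along the pools. The area under the ROC curve that separates positive from negative control probe sets was 0.844 to 0.854 on EDL arrays, 0.831 to 0.838 on GS arrays, and 0.779, 0.778 and 0.828 on those of TA mice M0, M1 and M3. M0 and M1 stood apart on the first principal component (77.3 and 98.5 against -45.6 to 8.72 on the other 7 arrays). The TA mice bear the lowest mouse numbers of the series, which the sources used here do not explain, and anything that follows those numbers cannot be told apart from the TA pool. All 10 MN markers were above the median negative control signal on all 9 arrays. None of the 10 was called, and their median was 0.45 higher in EDL than in TA (-0.48, -0.72 and -0.10 from the EDL mean in M0, M1 and M3). The mean level of the MN list was 12.45 to 12.67 on EDL arrays, 12.43 to 12.48 on GS arrays and reached down to 11.69 on TA arrays. Of the astrocyte markers 1 of 5 was called (Slc1a2, -0.43), and the list median was -0.18. Of the endothelial and pericyte markers 1 of 6 was called, Cldn5, which was higher in EDL (1.27), whereas the other 5 (Pecam1, Cdh5, Flt1, Pdgfrb and Rgs5) had lower means in EDL, from -0.63 to -0.32, none of them called, and the list median was -0.39. Of the oligodendrocyte, microglia and interneuron markers none of 5, 6 and 6 was called between EDL and TA. All 6 interneuron markers had a higher mean in GS than in either other pool, none of them called. Their median GS-TA difference was 0.39 and their median EDL-GS difference -0.32. From the EDL mean, their median stood at 0.10, 1.17 and 0.08 in GS M13, M30 and M31. The part of quality and of cell content in the differences below was not tested.

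Every translation factor gene called between EDL and TA MNs was higher in EDL. Of the 58 members, 16 were called higher in EDL and 0 lower, against a background of 2.86% called higher and 2.22% called lower among all 65956 clusters, and of 4.76% called higher among the 30176 genes with a single symbol. At an unadjusted p under 0.05 the members numbered 33 higher (background 9.19%) and 2 lower (background 13.7%). Among the 30176 genes with a single symbol, 4519 were higher and 2270 lower at that threshold, and 292 were called lower. The EDL mean was above the TA mean at 48 members, with a median difference of 0.30 over the members, -0.04 over all clusters and 0.00 over all genes with a single symbol. At 33 members every EDL value was above every TA value (background 9.23%, and 4438 of the 30176 genes with a single symbol). The members called were subunits of eIF3 (9 of 12), eEF1 (2 of 5 genes of that name) and eIF2B (2 of 5), and Eif5b, Eif6 and Eif1ad. These last were 3 of 9 in the list of start codon and tRNA binding factors, eIF6 and their partners. None was called among the eIF2 alpha kinases (0 of 4), the eIF4 factors (0 of 11) or the eIF4E binding proteins (0 of 3). The same held for eIF5A (0 of 2), eEF2 with its kinase (0 of 2) and the methyltransferases (0 of 4). Whether the difference of one role list was larger than that of another was not tested.

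**Figure D1:**
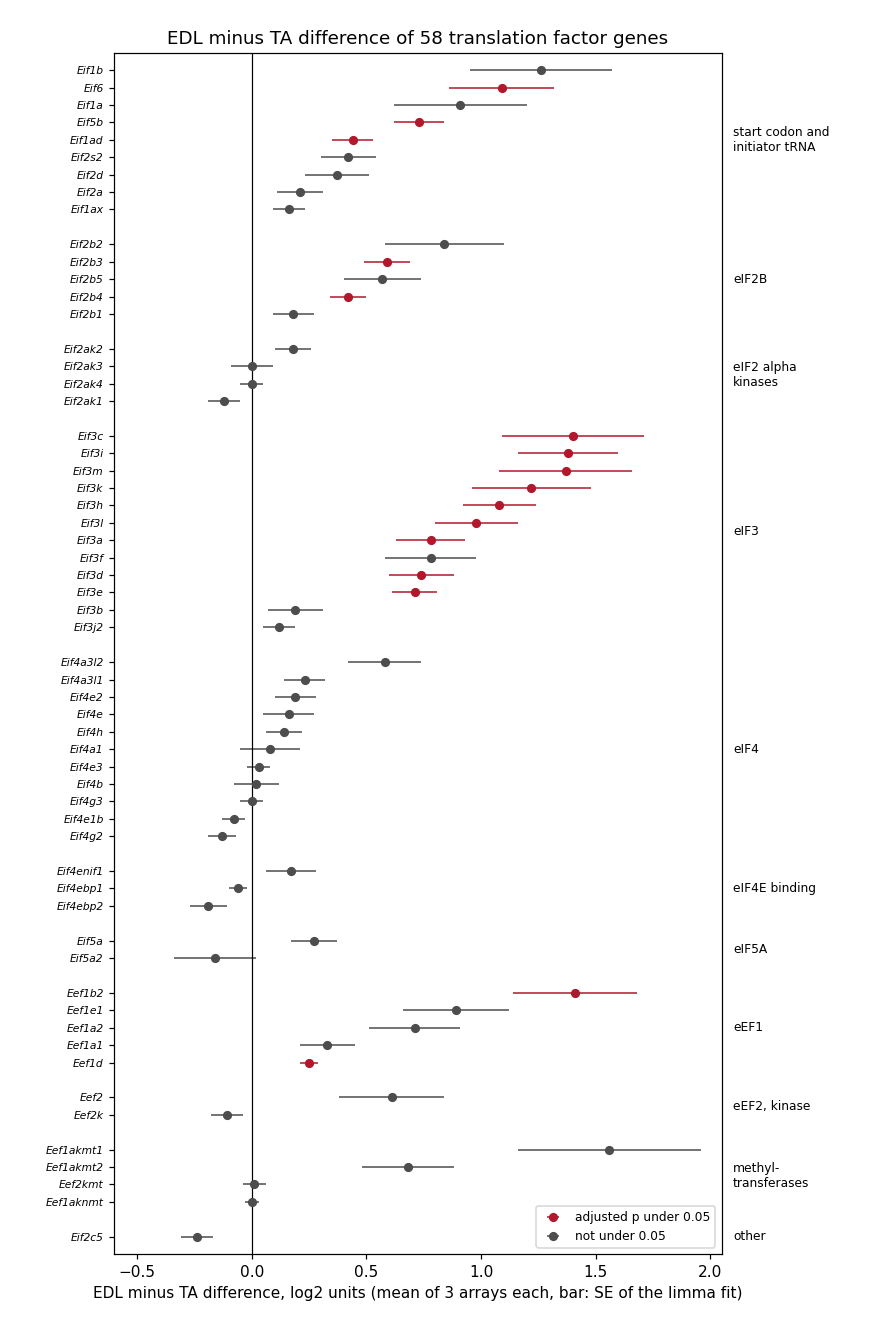
EDL minus TA difference of each of the 58 members in log2 units (horizontal axis; point, difference of the means of 3 arrays each; bar, SE of the limma fit), grouped by role. The 16 red points, with an adjusted p under 0.05, all lie to the right of 0, and most eIF4 factors and the eIF2 alpha kinases lie near 0.

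GS MNs were compared with both other pools. Between GS and TA, 1 member was called higher and 0 lower (backgrounds 0.385% and 0.249%), and 25 were higher at an unadjusted p under 0.05 (background 7.42%). Between EDL and GS no member and no cluster of the array was called (background 0%), and at an unadjusted p under 0.05 there was 1 member (background 3.67%). Members that trended, with a GS mean between the others and an unadjusted EDL-TA p under 0.05, numbered 31 higher in EDL (background 8.16%) and 2 lower, Eif4ebp2 and Eif2c5 (background 11.8%). Of the 30176 genes with a single symbol, 4071 trended higher in EDL and 1870 lower. At an unadjusted p under 0.05, 3470 of those 30176 were higher in GS than in TA. At 20 members every EDL value was above every GS value (background 5.18%, and 2439 of the genes with a single symbol). The median GS-TA difference was 0.25 and the median EDL-GS difference 0.10. The comparisons with TA share the same 3 TA arrays.

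Among the TA mice, M0 and M1 were the lower ones. The median distance of the members from their EDL mean was -0.40 in M0, -0.38 in M1 and -0.18 in M3, and -0.12 to -0.08 in the GS mice. M3 was the highest TA mouse at 33 of 58 members and the lowest at 7. The median SD over the members was 0.21 among TA mice, 0.08 among EDL mice and 0.04 among GS mice. The fit used a single spread for all pools, so where TA mice scattered more its p-values for comparisons with TA are too small. Identical values on 2 or more arrays were common in the deposited table (61.6% of clusters, and 35 of 58 members), which narrows the spread within a pool.

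**Figure D2:**
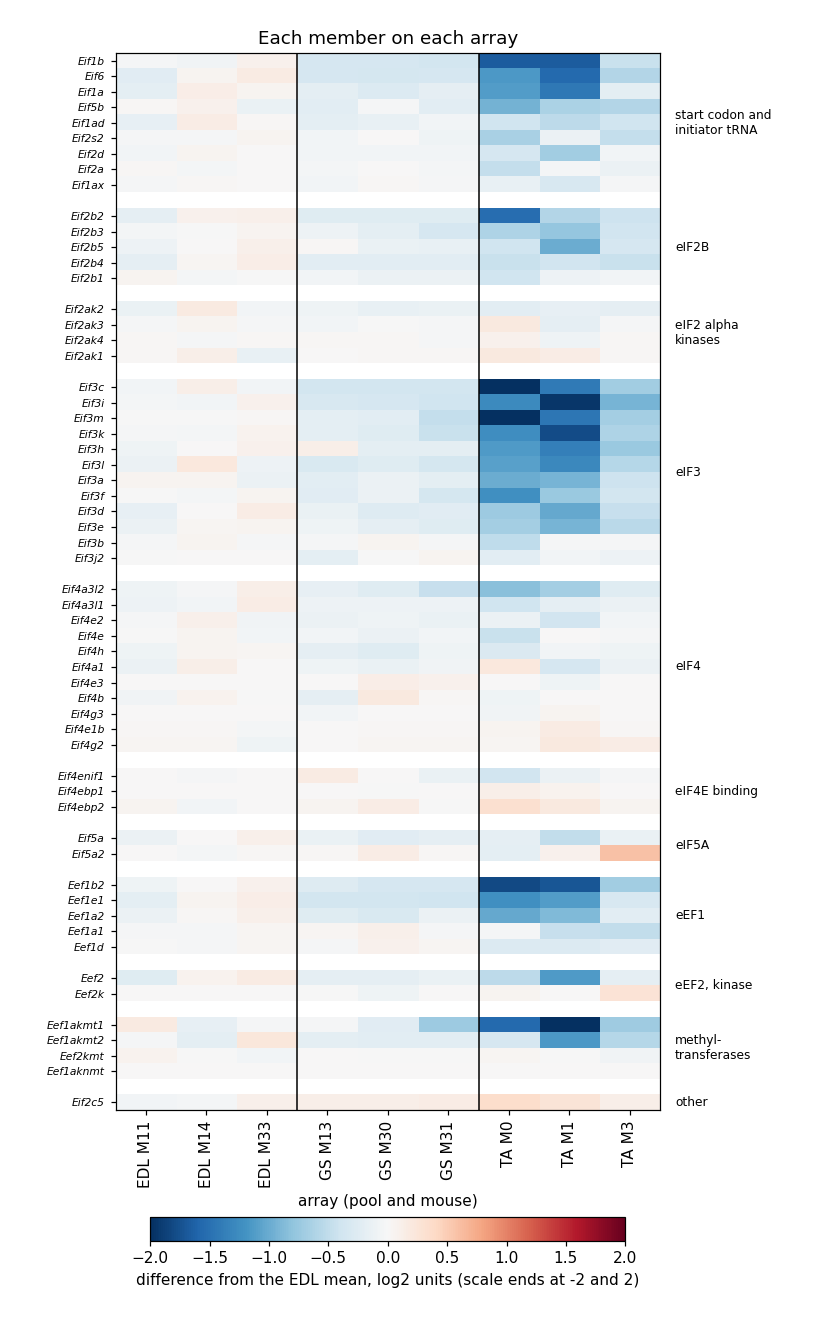
Each of the 58 members (rows, grouped by role) on each of the 9 arrays (columns), coloured by its difference from the mean of the 3 EDL arrays in log2 units, with the scale ending at -2 and 2. The blue cells, below EDL, lie mainly in TA mice M0 and M1. They include many eIF3 and eEF1 rows and others such as Eif1a, Eif1b, Eif6, Eif2b2 and Eef1akmt1. The TA M3 column is paler.

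eIF3, the largest initiation factor, holds the small ribosomal subunit ready for the message. The EDL mean was above the TA mean for all 12 measured subunits, with a median difference of 0.88 and a range from 0.12 to 1.40, and 9 of 12 were called, 0 lower. From the EDL mean, their median stood at -1.11 in M0, -1.15 in M1 and -0.55 in M3.

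The octamer that forms the core of eIF3 has 8 subunits with PCI or MPN domains (a, c, e, f, h, k, l and m), and 7 of these 8 were called. Eif3c, which anchors the amino-terminal side of the core, had 12.87, 13.06 and 12.87 in EDL, 12.56 on each of the 3 GS arrays, and 10.82, 11.53 and 12.25 in TA MNs. The pools did not overlap, and EDL was 1.40 above TA (SE 0.31, 2.64-fold, adjusted p = 0.0479, and 0.0514 with trended and robust moderation). Eif3m had 12.03, 12.03 and 12.05 in EDL, 11.83, 11.82 and 11.57 in GS, and 10.05, 10.58 and 11.36 in TA MNs. The EDL mice were nearly level, and the TA mice, all below GS, differed among themselves by more than EDL differed from GS. Its EDL-TA difference was 1.37 (SE 0.29, 2.59-fold, adjusted p = 0.0433).

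Eif3k, a small subunit at the edge of the core, had 10.87, 10.85 and 10.97 in EDL, 10.70, 10.64 and 10.46 in GS, and 9.65, 9.10 and 10.29 in TA MNs (EDL-TA difference 1.22, SE 0.26, adjusted p = 0.0450). Its partner Eif3l, whose motif is printed above, had 9.61, 9.93 and 9.63 in EDL, 9.42, 9.48 and 9.37 in GS, and 8.64, 8.44 and 9.16 in TA MNs (0.98, SE 0.18, adjusted p = 0.0310). Both genes stepped down from EDL to GS to TA with no overlap between pools. Eif3h, an MPN subunit, had 13.95, 14.04 and 14.13 in EDL, 14.16, 13.85 and 13.84 in GS, and 12.91, 12.69 and 13.30 in TA MNs. Here EDL and GS overlapped and only TA was apart, with a difference of 1.08 to EDL (SE 0.16, 2.11-fold, adjusted p = 0.0195) and of 0.99 to GS (adjusted p = 0.0546).

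Eif3e, a PCI subunit, had 11.03, 11.18 and 11.20 in EDL, 11.06, 10.96 and 10.89 in GS, and 10.46, 10.21 and 10.60 in TA MNs. It had the lowest adjusted p of the members (difference 0.71, SE 0.10, adjusted p = 0.0193), and EDL and GS overlapped. Eif3a, the scaffold of the complex, had 11.68, 11.67 and 11.51 in EDL, 11.41, 11.50 and 11.43 in GS, and 10.63, 10.69 and 11.21 in TA MNs (0.78, SE 0.15, adjusted p = 0.0322). The core subunit that was not called, Eif3f, had 9.84, 9.81 and 9.90 in EDL, 9.63, 9.74 and 9.50 in GS, and 8.62, 9.10 and 9.49 in TA MNs. Its pools did not overlap, and its difference of 0.78 was as large as that of Eif3a, with a wider error (SE 0.20, adjusted p = 0.0655).

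Outside the core, Eif3d, which can itself bind the cap of some messages, had 12.97, 13.14 and 13.28 in EDL, a mean of 12.92 (SD 0.07, n = 3 mice) in GS, and 12.40, 12.10 and 12.67 in TA MNs (0.74, SE 0.14, adjusted p = 0.0351). Eif3i, a propeller-shaped subunit of the module that reaches the entry side of the messenger channel, had 10.62, 10.61 and 10.76 in EDL, 10.34, 10.33 and 10.27 in GS, and 9.39, 8.73 and 9.74 in TA MNs. It stepped down without overlap, and EDL was 1.38 above TA (SE 0.22, 2.60-fold, adjusted p = 0.0237). Its neighbour in that module, Eif3b, had 9.63, 9.72 and 9.63 in EDL, 9.63, 9.71 and 9.63 in GS, and 9.16, 9.63 and 9.63 in TA MNs. Only M0 was lower (0.19, SE 0.12, adjusted p = 0.421), and 2 TA mice held the same value as EDL and GS mice. Eif3j2, a copy of the loosely bound subunit gene Eif3j1 whose signal may be shared with it, was at 0.12 (SE 0.07, adjusted p = 0.360).

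**Figure D3:**
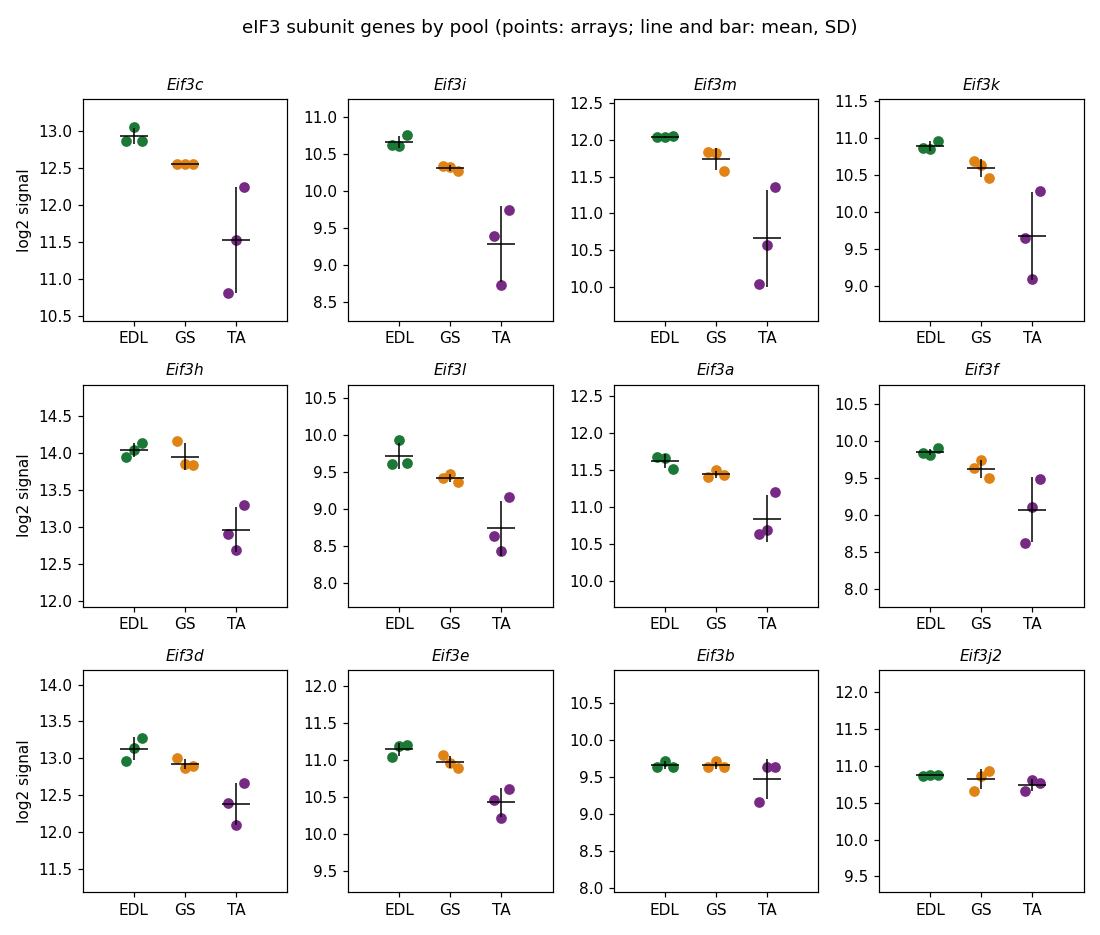
Log2 signal of the 12 measured eIF3 subunit genes in EDL, GS and TA MNs (points, 3 arrays per pool; line and bar, mean and SD), with panels of equal height in log2 units and ordered by the EDL-TA difference. The TA points lie below the EDL points in all panels but that of Eif3b, where 2 TA mice are level with EDL, and they scatter more than EDL or GS points in most panels.

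In the list of start codon and initiator tRNA binding factors, eIF6 and their partners, 3 of 9 were called higher in EDL, 0 lower. The median difference was 0.44. Eif5b, the GTPase of subunit joining, had 10.57, 10.63 and 10.41 in EDL, 10.33, 10.51 and 10.33 in GS, and 9.58, 9.89 and 9.95 in TA MNs. All TA values were below the others, with a difference of 0.73 to EDL (SE 0.11, adjusted p = 0.0201) and of 0.58 to GS (adjusted p = 0.0754). Eif6, which keeps the large subunit from joining too early and takes part in its assembly, had 10.28, 10.55 and 10.67 in EDL, 10.17, 10.15 and 10.17 in GS, and 9.35, 8.95 and 9.92 in TA MNs (1.09, SE 0.23, 2.13-fold, adjusted p = 0.0419). Eif1ad, which shares a domain with eIF1A, had 8.10, 8.42 and 8.29 in EDL, 8.08, 8.12 and 8.21 in GS, and 7.87, 7.74 and 7.87 in TA MNs (0.44, SE 0.09, adjusted p = 0.0357, and 0.0806 with array weights). M3 was here level with M0 to the decimals printed.

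The other 6 of these factors were not called. Eif1b, a close relative of the scanning factor eIF1, had 9.71, 9.67 and 9.82 in EDL, 9.41, 9.40 and 9.37 in GS, and 8.07, 8.06 and 9.30 in TA MNs. M0 and M1 were low and M3 was next to GS, and the difference of 1.26 had an SE of 0.31 (adjusted p = 0.0614). Eif2s2, the beta subunit of eIF2, was at 0.42 (SE 0.12, adjusted p = 0.0963), and Eif1a at 0.91 (SE 0.29, adjusted p = 0.114), whereas its X-linked relative Eif1ax was at 0.16 (SE 0.07, adjusted p = 0.240). Eif1a and Eif1ax encode nearly the same eIF1A protein, and how far their probes share signal was not tested. Eif2d and Eif2a, which can place tRNA on the ribosome without eIF2, were at 0.37 and 0.21 (adjusted p = 0.172 and 0.277).

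eIF2B is built from 5 subunits, all of which were measured. The EDL mean was the higher for each of them (median 0.57), and 2 were called. Eif2b3, the gamma subunit that pairs with the catalytic one, had 9.05, 9.07 and 9.13 in EDL, 8.98, 8.88 and 8.75 in GS, and 8.46, 8.31 and 8.70 in TA MNs (0.59, SE 0.10, adjusted p = 0.0271). Eif2b4, the regulatory delta subunit, had 8.29, 8.51 and 8.61 in EDL, 8.26 on all 3 GS arrays, and 8.02, 8.09 and 8.03 in TA MNs (0.42, SE 0.08, adjusted p = 0.0314, and 0.0941 with array weights). Both stepped down without overlap, and Eif2b4 was the member past the unadjusted threshold between EDL and GS (0.21, SE 0.08, adjusted p = 1 from limma). Eif2b5, the catalytic epsilon subunit, had 10.11, 10.22 and 10.31 in EDL, 10.24, 10.07 and 10.07 in GS, and 9.81, 9.23 and 9.88 in TA MNs (0.57, SE 0.17, adjusted p = 0.0961). Eif2b2 was at 0.84 with a wide error (SE 0.26, adjusted p = 0.112), M0 being lowest at 7.42 beside 8.35 and 8.52 in M1 and M3. Eif2b1, the alpha subunit, was at 0.18 (adjusted p = 0.285).

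None of the kinases that act on eIF2 was called. Eif2ak3 (PERK, the sensor of the endoplasmic reticulum) had 8.80, 8.88 and 8.80 in EDL, 8.77, 8.82 and 8.80 in GS, and 9.03, 8.65 and 8.80 in TA MNs, a difference of 0.00 (SE 0.09, adjusted p = 1). Eif2ak4 (GCN2, the sensor of amino acid shortage) was at 0.00 (SE 0.05) and Eif2ak1 (HRI, the heme-regulated kinase) at -0.12 (SE 0.07, adjusted p = 0.375). Eif2ak2 (PKR, activated by double-stranded RNA) was at 0.18 (SE 0.08, adjusted p = 0.216), with 7.98, 8.30 and 8.06 in EDL and 7.91, 7.95 and 7.93 in TA MNs.

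The 11 eIF4 members, of the cap-binding and helicase step, had a median difference of 0.08, and none was called. Their mean level was 10.18 to 10.26 on the EDL arrays and reached down to 10.05 on TA arrays. Eif4e, which binds the cap, had 11.62, 11.69 and 11.58 in EDL, 11.58, 11.52 and 11.58 in GS, and 11.19, 11.63 and 11.60 in TA MNs (0.16, SE 0.11, adjusted p = 0.462). Only M0 was lower. Its relatives Eif4e2, a cap-binding repressor, and Eif4e3 were at 0.19 and 0.03 (adjusted p = 0.264 and 0.779).

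Of the scaffolds, Eif4g3 had 10.62, 10.64 and 10.62 in EDL, 10.56, 10.62 and 10.62 in GS, and 10.56, 10.69 and 10.63 in TA MNs, a difference of 0.00 (SE 0.05). Eif4g2 (DAP5), which lacks the site for eIF4E, was at -0.13 (SE 0.06, adjusted p = 0.231), with 13.30, 13.31 and 13.19 in EDL and 13.30, 13.46 and 13.41 in TA MNs. The helicase Eif4a1 had 11.72, 11.94 and 11.84 in EDL and 12.04, 11.49 and 11.72 in TA MNs, where M0 was highest and M1 lowest of all arrays (0.08, SE 0.13, adjusted p = 0.764). Its helpers Eif4b and Eif4h were at 0.02 (SE 0.10) and 0.14 (SE 0.08). The sign of Eif4a1, Eif4b, Eif4e and Eif4h turned when the arrays were quantile normalized, with values of -0.14, -0.08, -0.04 and -0.01, none of which was called. The members of the group that were called in some other setting were the helicase copies described next.

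The largest difference of the eIF4 group was that of Eif4a3l2, a processed copy of the helicase gene Eif4a3, with 8.36, 8.41 and 8.56 in EDL, 8.28, 8.21 and 7.98 in GS, and 7.61, 7.76 and 8.20 in TA MNs (0.58, SE 0.16, adjusted p = 0.0777). It was called after quantile normalization (0.72, adjusted p = 0.0439), over clusters above the negative controls (0.58, adjusted p = 0.0408) and without TA M3 (0.76, adjusted p = 0.00588). Eif4a3l1, a second such copy, was at 0.23 (SE 0.09, adjusted p = 0.183), and was called after quantile normalization (0.40, adjusted p = 0.0443). The signal of either copy may come in part from Eif4a3 itself. The oocyte factor Eif4e1b was near background, above the median negative control signal on 5 of 9 arrays.

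The eIF4E binding proteins hold eIF4E away from the scaffold until TOR phosphorylates them. Eif4ebp2, the form that neurons use most, had 8.98, 8.87 and 8.93 in EDL, 8.98, 9.08 and 8.91 in GS, and 9.25, 9.12 and 8.98 in TA MNs (-0.19, SE 0.08, unadjusted p = 0.0454 from limma, adjusted p = 0.208). M0 and M1 were the highest arrays, and M3 was level with EDL. Eif4ebp1 was at -0.06 (SE 0.04, adjusted p = 0.408) and Eif4enif1, which carries eIF4E into the nucleus, at 0.17 (SE 0.11, adjusted p = 0.388).

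Of the genes named for elongation factor 1, 2 of 5 were called higher in EDL than in TA MNs, 0 lower. All 5 means were higher (median 0.71), with Eef1e1, which belongs to another complex, counted by its name. Eef1b2, the exchange subunit eEF1B alpha, had 9.98, 10.07 and 10.16 in EDL, 9.81, 9.73 and 9.73 in GS, and 8.26, 8.35 and 9.37 in TA MNs. The 3 pools did not overlap, and its difference was the largest of the called members at 1.41 (SE 0.27, 2.65-fold, adjusted p = 0.0336). Eef1d, a further exchange subunit, had 9.28, 9.26 and 9.33 in EDL, 9.26, 9.38 and 9.33 in GS, and 9.02, 9.02 and 9.08 in TA MNs. EDL and GS overlapped and all TA mice lay below them, with a small difference of 0.25 to EDL (SE 0.04, 1.19-fold, adjusted p = 0.0265) and 0.29 to GS (adjusted p = 0.0481), which made Eef1d the 1 member called between GS and TA. With trended and robust moderation its EDL-TA call was lost (adjusted p = 0.0580). M3 was here level with M0 and M1.

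Neither of the eEF1A genes was called. Eef1a2, the form of mature neurons and muscle, had 15.06, 15.21 and 15.29 in EDL, 14.94, 14.87 and 15.07 in GS, and 14.15, 14.31 and 14.98 in TA MNs (0.71, SE 0.20, adjusted p = 0.0885). Eef1a1, the form of most other cells, had 15.65, 15.65 and 15.71 in EDL, 15.71, 15.77 and 15.65 in GS, and 15.64, 15.21 and 15.18 in TA MNs (0.33, SE 0.12, adjusted p = 0.152). The TA mice were not in the same order in the 2 genes, M3 being the highest for Eef1a2 and the lowest for Eef1a1. Eef1a1 has many copies in the genome and its signal may include theirs. Eef1e1, a member of the aminoacyl-tRNA synthetase complex, had 10.89, 11.14 and 11.22 in EDL, 10.72, 10.72 and 10.68 in GS, and 9.87, 9.96 and 10.77 in TA MNs (0.89, SE 0.23, adjusted p = 0.0683).

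Eef2, the translocase, had 14.69, 15.01 and 15.11 in EDL, 14.76, 14.76 and 14.79 in GS, and 14.41, 13.80 and 14.76 in TA MNs. M3 lay within the EDL range, and the difference of 0.61 was not called (SE 0.23, adjusted p = 0.166). Eef2k, the kinase that stalls eEF2, had 8.51 on all 3 EDL arrays, 8.50, 8.43 and 8.51 in GS, and 8.57, 8.51 and 8.77 in TA MNs (-0.11, SE 0.07, adjusted p = 0.407). eIF5A, which frees ribosomes stalled on proline runs, is made from Eif5a and Eif5a2. Eif5a had 11.56, 11.67 and 11.77 in EDL and 11.49, 11.17 and 11.53 in TA MNs (0.27, SE 0.10, adjusted p = 0.163). Eif5a2 had 9.86, 9.81 and 9.88 in EDL and 9.65, 9.94 and 10.44 in TA MNs (-0.16, SE 0.18, adjusted p = 0.631), and M3 alone was high.

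**Figure D4:**
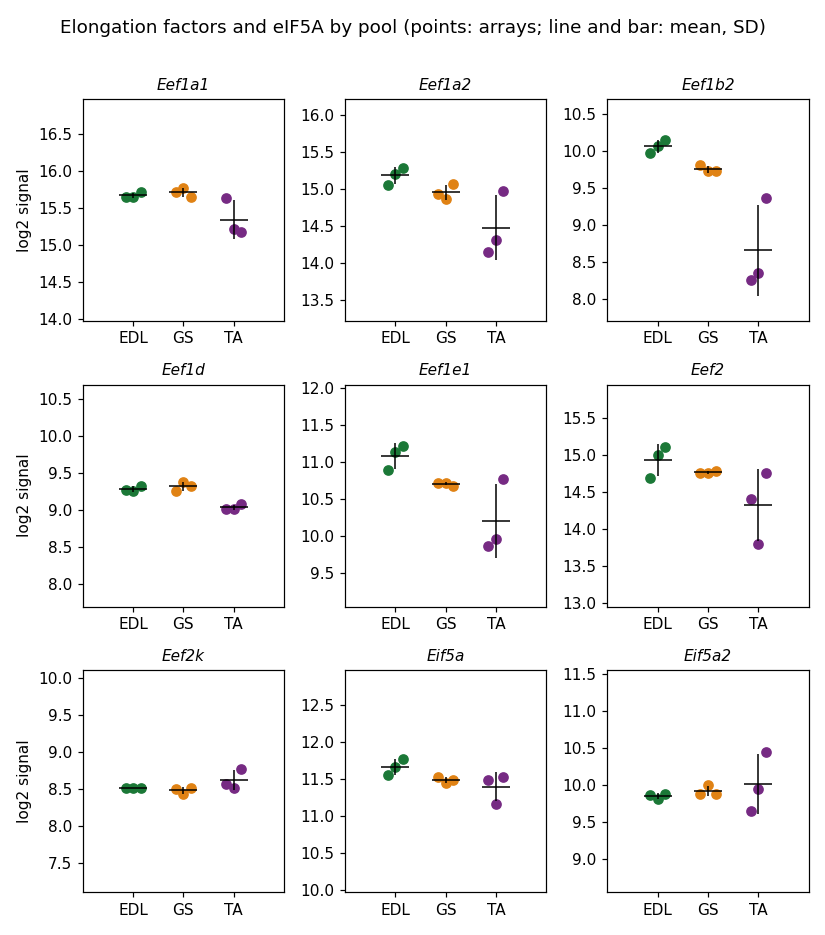
Log2 signal of 9 genes of elongation factors, their kinase and eIF5A in EDL, GS and TA MNs (points, 3 arrays per pool; line and bar, mean and SD), with panels of equal height in log2 units. The TA points of Eef1b2 lie lowest relative to EDL, those of Eef1d lie close together below EDL and GS, and those of Eef2k and Eif5a2 do not lie below EDL as a group.

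Of the enzymes that methylate eEF1A or eEF2, none of 4 was called. Eef1akmt1 had the largest difference of all 58 members, with 9.95, 9.61 and 9.76 in EDL, 9.76, 9.54 and 9.05 in GS, and 8.22, 7.35 and 9.07 in TA MNs (1.56, SE 0.40, 2.96-fold, adjusted p = 0.0708). Its TA mice differed by more than the EDL and TA means. Eef1akmt2 was at 0.68 (SE 0.20, adjusted p = 0.0988). Eef2kmt and Eef1aknmt were each above the median negative control signal on 6 of 9 arrays, and Eef1aknmt had 6.23 on all 9. Eif2c5 was below that median on every array (-0.24, adjusted p = 0.0998), so that its values describe background.

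The known TOP messages among the members (Eef1a1, Eef1b2, Eef1d, Eef2, Eif3e, Eif3f, Eif3h and Eif4b) had 4 of 8 called and a median difference of 0.66, beside 12 of 50 and 0.22 for the other members. Their range ran from 0.02 for Eif4b to 1.41 for Eef1b2. Cytosolic ribosomal proteins, whose messages are of the TOP type, had 22 of 42 called higher in EDL, 0 lower, with a median of 0.80. They stood at -0.85, -1.12 and -0.55 from the EDL mean in M0, M1 and M3. Among all genes with a single symbol, 4.76% were called higher in EDL.

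**Figure D5:**
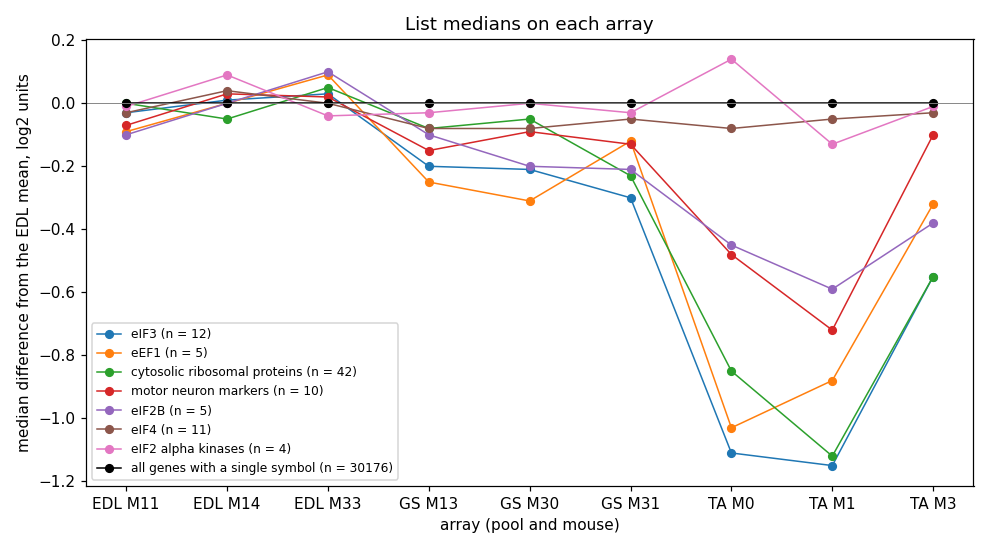
Median over each list of the difference from the EDL mean (vertical axis, log2 units) on each of the 9 arrays (horizontal axis), for 5 role lists, cytosolic ribosomal proteins, MN markers and all genes with a single symbol. The eIF3, eEF1 and ribosomal protein medians drop furthest in TA mice M0 and M1, MN markers drop less, and the eIF4 factors stay between -0.08 and 0.04.

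Genes that act beside the members were taken from lists as well. Their counts stand beside the 4.76% called higher in EDL among all genes with a single symbol. A single call in a short list says little beside that share. Among factors of termination and recycling, 1 of 7 was called, Denr, which helps to recycle and re-initiate ribosomes, with 9.75, 9.89 and 9.77 in EDL, 9.75, 9.80 and 9.75 in GS, and 9.53, 9.54 and 9.54 in TA MNs (0.27, SE 0.05, adjusted p = 0.0254). Its partner Mcts1 was at 1.37 (SE 0.42, adjusted p = 0.112), with M0 and M1 at 7.34 and 7.64 and M3 at 9.13. Of the TOR pathway, 1 of 9 was called, Rheb, the GTPase that activates TOR, with 12.65, 12.74 and 12.75 in EDL, 12.59, 12.47 and 12.37 in GS, and 11.12, 10.83 and 11.86 in TA MNs (1.44, SE 0.23, adjusted p = 0.0238). Mlst8, a subunit of the TOR complexes, was at -0.25 (SE 0.10, adjusted p = 0.203).

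Of 9 genes of the integrated stress response, the program that follows eIF2 phosphorylation, 2 were called, both higher in EDL. Ddit3 (CHOP) had a mean of 10.05 (SD 0.04, n = 3 mice) in EDL, 9.84, 10.01 and 10.03 in GS, and 9.57, 9.37 and 9.44 in TA MNs (0.59, SE 0.07, adjusted p = 0.0131), and was also higher in GS than in TA (0.50, adjusted p = 0.0428). Asns, asparagine synthetase, had 11.97, 12.09 and 11.90 in EDL and 10.93, 10.43 and 11.43 in TA MNs (1.05, SE 0.22, adjusted p = 0.0442). The list median was 0.00, and Ppp1r15b, a subunit of the phosphatase that acts on eIF2, was at -0.32 (SE 0.09, adjusted p = 0.0796).

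Of the enzymes that modify eIF5A and eEF2, 1 of 7 was called, Dhps, which makes the hypusine residue of eIF5A, with 8.46, 8.31 and 8.56 in EDL, 8.33, 8.31 and 8.31 in GS, and 7.99, 7.91 and 8.01 in TA MNs (0.48, SE 0.07, adjusted p = 0.0172). No gene was called among 5 of poly(A)-binding protein and its partners (largest moderated t, Paip2b, 0.32, adjusted p = 0.103), 9 mitochondrial translation factors (Mtrf1, 0.64, adjusted p = 0.0635) and 7 partners of eIF5, eIF4G or eIF4A (Bzw1, 0.65, adjusted p = 0.101).

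Leaving out any 1 mouse other than TA M3 ended most of the calls. Without EDL M14 or without EDL M33, 0 of the 16 calls were left, and without EDL M11 there were 2. Without GS M13, M30 or M31 there were 4, 3 and 6. Without TA M0 or M1 there were 3 and 5 (one of them, in each case, a member not called with all arrays). Calls over the whole array fell in these fits as well. Clusters called higher numbered 1884 with all arrays, 192 without EDL M14, 132 without EDL M33 and 314 without EDL M11. They numbered 710, 598 and 974 without GS M13, M30 or M31, and 767 and 845 without TA M0 or M1. Without TA M3, 28 members were called higher, the 16 among them, and 1, Eif2c5, lower, in a fit that called more clusters over the whole array as well (4750 higher and 5720 lower of 65956, against 1884 and 1467 with all arrays). The differences themselves moved less, the median over the eIF3 subunits being 0.81 to 1.09 when any 1 mouse was left out, with all 12 positive each time. Eif5b and Eif3e kept their call in 6 of these 9 fits, Eif3h in 5, and Eif3i and Eef1d in 3.

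With both M0 and M1 left out, so that TA was M3 alone, the eIF3 median was 0.55 and again all 12 means were higher in EDL. The lone TA mouse is then assumed to vary like the other pools. Calls of this fit are therefore not counted. The members that kept their call most often above were at 0.59 (Eif5b), 0.54 (Eif3e), 0.74 (Eif3h), 0.93 (Eif3i) and 0.22 (Eef1d). With all arrays these differences were 0.73, 0.71, 1.08, 1.38 and 0.25. Among uncalled members, Eif1a was at 0.19 and Eef1a2 at 0.21, beside 0.91 and 0.71 with all arrays. Eif5a2, where M3 alone was high, was at -0.59. The median over all members was then 0.18.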

How the data were processed

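Total RNA of laser-captured MNs from 9 mice was hybridised to GeneChip Mouse Transcriptome arrays, 3 per pool. The authors deposited log2 values, background-corrected, normalized and summarised per transcript cluster (by sst-RMA according to the methods, whereas the submitters' notes name RMA and the Transcriptome Analysis Console); these were used unscaled. The sources used here give no version. Array controls (6732 of 72688 probe sets) were not tested. Symbols came from the platform annotation, and the cluster with the highest mean stood for a gene.

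Comparisons used limma 3.58.1 under R 4.3.3 (1 mean per pool, a single spread, 1.4 prior degrees of freedom, two-sided, Benjamini-Hochberg adjustment over 65956 clusters), which was checked on simulated data. p-values measure the spread between single mice, and 3 arrays per pool limit the precision. Members, role lists and tests were chosen with earlier results of these data known. Named with values are all called members, up to 4 per role by moderated t (and the smallest in longer lists), the 5 largest per other comparison, paralog sets, and up to 3 per related list. Promoter windows came from RefSeq (GRCm38.p6). Alternatives are given in the closing section.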

Additional observations from a re-analysis of the deposited data

How the results depend on the processing

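Members called higher in EDL than TA numbered 16, with 1884 clusters called higher over the whole array. The count was 17 with arrays centred on their medians (2708 clusters) and 21 after quantile normalization (3176 clusters). It was 14 with trended and robust moderation (Eif3c and Eef1d lost, 1599 clusters). With array weights it was 18 (Eif1ad and Eif2b4 lost, and Eif1b, Eif3f, Eef1e1 and Eef1akmt1 gained, 2518 clusters). Over the smaller set of clusters above the negative controls it was 22 (3044 clusters). With the clusters of a gene averaged it was 15 (1883 clusters), where Eif3d lost its call. With the spread of the compared pools alone 0 were called (3 clusters of all 65956 were called higher), and with a plain unmoderated test 1, Eef1d (319 clusters). At an unadjusted p there were 33. Leaving out 1 mouse gave 0 to 28, with 132 to 4750 clusters called higher on the whole array. Members called lower numbered 0, 2 at an unadjusted p, and 0 to 1 with 1 mouse left out.

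Between GS and TA the count was 1, with 418 clusters called over the whole array. It became 0 with centring, the spread of the compared pools alone, the plain test, trended moderation or array weights. It became 3 after quantile normalization (782 clusters), 5 over clusters above the negative controls (1366 clusters) and 25 at an unadjusted p (10380 clusters). With 1 mouse left out it was 0 to 22 (22 without M3, where 7177 clusters were called over the whole array). Between EDL and GS it stayed 0 in all of these but the unadjusted p, which gave 1. The 31 members with the GS mean in between became 15 with an adjusted p, and 26 to 38 in the other settings. The fit with M3 as the only TA mouse is left out of that range. The median difference over members of 0.30 ranged from 0.18 (without M0 and M1) to 0.38 (centred). The shift of all clusters was -0.04, and 0.04 and 0.02 after centring and quantile normalization.

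No called member changed sign. Uncalled members did so with values near 0. After quantile normalization these were Eif1ax (-0.02), Eif4a1 (-0.14), Eif4b (-0.08), Eif4e (-0.04), Eif4h (-0.01), Eif4e1b (0.02) and Eif4ebp1 (0.10), and after centring Eif4e1b (0.01) and Eif4ebp1 (0.02). With a mouse left out they were Eif4a1 (-0.05 without M1, in a range up to 0.22 without M0), Eif4b (-0.02 without EDL M14, -0.01 without M0 and -0.01 without M0 and M1), Eif5a2 (0.05 without M3, in a range down to -0.34 without M0) and Eef2kmt (-0.02 without EDL M11 and -0.01 without M3). The causes were not tested. No paired analysis was possible because no mouse number is shared between pools.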

Other observations

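Clusters of translation factor genes that the platform annotation gives several symbols, or a pseudogene name, were outside the list, and their signal may mix several loci. Eif1-ps3, named as a copy of Eif1, had 11.68, 11.72 and 11.81 in EDL, 11.45, 11.52 and 11.37 in GS, and 9.09, 9.63 and 11.12 in TA MNs (EDL-TA difference 1.79, SE 0.45, adjusted p = 0.0663 from limma over all clusters). M0 and M1 were the lowest arrays, and the pools did not overlap. The copies Eif3s6-ps1 and Eif3s6-ps2 were at 1.08 and 0.79 (adjusted p = 0.0755 and 0.0638) and Eif5al3-ps at 0.84 (adjusted p = 0.0826). Eif4a-ps4 was at 0.29 (adjusted p = 0.311), with EDL and TA values that overlapped. None of these was called.

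Among clusters with several symbols, that of Eif4a3 with Gm5576 was at 0.56 (adjusted p = 0.0802), that of Eif4a2 with small nucleolar RNA genes at 0.39 (adjusted p = 0.0788), that of Eef1g with Gm29753 at 0.44 (adjusted p = 0.114), that of Eif3j2 with Eif3j1 at 0.24 (adjusted p = 0.0740) and that of Eif5 with Snora28 at 0.19 (adjusted p = 0.143). The cluster of Ankhd1 with Eif4ebp3 was at 0.09 (adjusted p = 0.518). That of the Argonaute gene Ago4, also named Eif2c4, was the one of these clusters with a lower mean in EDL (-0.19, adjusted p = 0.265). The dim cluster of Eif3d, below the median negative control signal on every array, was at 0.02 (adjusted p = 0.919), beside 0.74 at its bright cluster.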
